A study of Mus musculus with 13 samples.

Results

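The axon guidance ligands and receptors of the mouse submandibular salivary gland were followed over 6 time points of development, class by class. Members were chosen by gene symbol, with earlier results of these data known. They comprised the semaphorins, plexins, neuropilins, netrins and netrin-Gs, the netrin receptors Dcc, Neo1 and Unc5a to Unc5d, the Slits, the Robos, the ephrins and the Eph receptors. This gave 72 genes of the 23364 listed, of which 37 encode ligands and 35 encode receptors. The data were RNA-seq of whole glands from C57BL/6 mice, with 3 samples at E14.5 (E for embryonic day) and 2 samples each at E16.5, E18.5, postnatal day 5 (P5), 4 weeks (4wk) and 12 weeks (12wk), 13 samples in all. Before birth animals were pooled, 3 to a sample at E14.5 and 2 to a sample at the later embryonic ages. No animal was treated or genetically altered. The 4wk and 12wk animals were male, whereas the sex of the embryos and of the P5 pups was not determined, so that age and sex cannot be told apart here.

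These families take their name from the growth cone, the moving tip of an axon, which they attract or repel. Secreted class 3 semaphorins bind neuropilins, which signal together with A-type plexins, while most membrane-bound semaphorins bind plexins directly. Netrins bind DCC, neogenin and UNC5 proteins, Slits bind Robo receptors, and ephrins on the surface of a cell bind Eph receptor tyrosine kinases on its neighbour. The same proteins act outside the nervous system, in blood vessels, in branching epithelia and in the mesenchyme around them. The submandibular gland buds into mesenchyme beside a parasympathetic ganglion and is innervated as it branches, so that epithelium, mesenchyme, vessels, nerve cells and glia could all contribute transcripts to a whole gland. In such bulk samples fewer cells of a type and less RNA per cell cannot be told apart.

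Levels are given as scaled FPKM, that is FPKM, in which reads are corrected for gene length and sequencing depth, divided by a factor per sample that brings the median gene to the same level in all samples. This factor was 1.148 to 1.38 in embryonic samples, 1.089 and 1.031 at P5 and 0.617 to 0.714 in adult samples, in which the 10 most abundant genes held 48.1% to 61.1% of all FPKM. Differences are log2 fold changes of scaled FPKM + 1 with their standard error (SE), tested with limma across 14650 genes that reached 1 FPKM in at least 1 sample. A gene was counted as higher or lower where its adjusted p was below 0.1 and its log2 fold change was at least 1 in size. Of the 72 members, 62 entered the test. The other 10, Sema3e, Sema4f, Plxnb3, Ntn5, Ntng2, Slit1, Robo3, Epha6, Epha8 and Epha10, stayed below 1 FPKM in all 13 samples as deposited. Of the 62, 15 reached 1 FPKM only before 4wk and Ntn4 only from P5 onward. For these the filter, set on FPKM as deposited, favoured a difference in that direction but did not ensure one. Of the 15, Efna3 and Ephb1 had log2 fold changes of −0.06 and 0.26, adult minus embryo, and did not pass.

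The samples held 5817075 to 48311583 reads on genes, and both 4wk samples were the shallowest, with 5817075 and 7957676. The first E14.5 sample stood apart from the other E14.5 samples. Its epithelial markers summed to 289 scaled FPKM against 480 and 468, its neuronal markers to 147 against 99.0 and 89.4, and its skeletal muscle markers to 201 against 105 and 81.6. Of the 62 members tested, 18 were over 1.5 times the mean of the other E14.5 samples in this sample, and 4 were below that mean by more than the same factor. For the genes that it moved most, values without it are given too. Epcam, which marks epithelium, was at 75.6 to 256 scaled FPKM in all 13 samples, and the acinar and duct markers summed to no more than 30.9 at E14.5, to 1835.1 and 2504.9 by E16.5, and to at least 12572.9 in every adult sample.

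Promoter sequences of 6 members whose levels moved apart are shown first, since the results return to these genes: the class 3 semaphorins Sema3c and Sema3a, the netrin receptors Unc5a and Unc5c, the Robo ligand Slit2 and the ephrin-A receptor Epha3. Each sequence, from RefSeq (GRCm38.p6), runs 5′ to 3′ from 250 bases before to 50 bases after a listed transcription start, and each had a single exact match in the mm9 genome. Capitals mark CG dinucleotides (CpG), the sites of DNA methylation. The windows lie at chr5:17080384-17080683 (plus strand, Sema3c), chr5:13396534-13396833 (plus, Sema3a), chr13:55050522-55050821 (plus, Unc5a), chr3:141128278-141128577 (plus, Unc5c), chr5:48374144-48374443 (plus, Slit2) and chr16:63863952-63864251 (minus, Epha3). The Sema3c and Sema3a windows lie wholly inside the gene models of the mm9 annotation (chr5:17080099-17236086 and chr5:13125593-13602565), which start further upstream. The Sema3c window is near the start of its model, whereas the Sema3a window is far inside its model.
Sema3c promoter: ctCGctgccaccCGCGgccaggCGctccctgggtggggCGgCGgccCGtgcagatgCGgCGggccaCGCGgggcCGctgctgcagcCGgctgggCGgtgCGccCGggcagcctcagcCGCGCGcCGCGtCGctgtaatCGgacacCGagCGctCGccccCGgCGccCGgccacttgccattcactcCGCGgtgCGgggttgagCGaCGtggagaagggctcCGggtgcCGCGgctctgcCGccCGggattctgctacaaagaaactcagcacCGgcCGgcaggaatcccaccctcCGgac
Sema3a promoter: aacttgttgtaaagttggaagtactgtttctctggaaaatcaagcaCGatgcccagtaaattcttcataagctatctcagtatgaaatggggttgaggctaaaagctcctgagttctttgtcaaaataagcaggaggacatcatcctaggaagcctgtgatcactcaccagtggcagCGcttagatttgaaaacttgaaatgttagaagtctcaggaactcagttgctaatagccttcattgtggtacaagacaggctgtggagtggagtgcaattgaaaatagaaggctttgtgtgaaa
Unc5a promoter: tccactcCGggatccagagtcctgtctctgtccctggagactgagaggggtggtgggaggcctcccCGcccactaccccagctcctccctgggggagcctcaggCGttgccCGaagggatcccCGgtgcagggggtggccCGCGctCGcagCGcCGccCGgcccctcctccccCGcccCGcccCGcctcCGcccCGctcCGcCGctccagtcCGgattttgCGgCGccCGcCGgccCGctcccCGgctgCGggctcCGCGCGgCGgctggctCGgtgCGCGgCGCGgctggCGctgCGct
Unc5c promoter: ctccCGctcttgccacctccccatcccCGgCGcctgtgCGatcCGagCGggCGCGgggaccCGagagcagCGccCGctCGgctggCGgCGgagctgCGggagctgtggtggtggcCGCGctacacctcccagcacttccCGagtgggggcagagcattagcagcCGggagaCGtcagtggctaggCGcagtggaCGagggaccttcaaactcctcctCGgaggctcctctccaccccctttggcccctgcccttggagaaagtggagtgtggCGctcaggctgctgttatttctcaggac
Slit2 promoter: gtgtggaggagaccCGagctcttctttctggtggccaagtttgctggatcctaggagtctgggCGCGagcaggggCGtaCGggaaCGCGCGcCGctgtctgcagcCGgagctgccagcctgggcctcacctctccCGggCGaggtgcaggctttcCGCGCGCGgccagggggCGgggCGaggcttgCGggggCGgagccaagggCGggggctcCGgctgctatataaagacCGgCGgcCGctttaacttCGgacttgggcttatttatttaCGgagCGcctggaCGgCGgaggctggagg
Epha3 promoter: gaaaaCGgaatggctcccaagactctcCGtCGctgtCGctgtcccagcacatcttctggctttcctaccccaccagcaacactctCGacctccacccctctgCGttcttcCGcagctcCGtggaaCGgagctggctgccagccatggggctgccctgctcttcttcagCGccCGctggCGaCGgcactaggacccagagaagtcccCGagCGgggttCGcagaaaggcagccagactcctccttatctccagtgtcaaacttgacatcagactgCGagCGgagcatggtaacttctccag

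The Sema3c window held 42 CpG, with a ratio of observed to expected CpG of 0.98, and the Sema3a window held 2, with a ratio of 0.16. Since the Sema3a window lies far inside its gene model, these counts do not compare like positions. The Unc5a, Unc5c, Slit2 and Epha3 windows held 37, 24, 30 and 18 CpG. The Slit2 window also contained TATAAA, the core of the TATA box, which was found in 2 of the 62 members with an entry (3.23%), in 7.64% of the 10604 tested genes with an entry and in 14.1% of all 26742 genes with an entry. A CpG ratio of at least 0.6 was found in 40 of these 62 members (64.5%). It was found in 68.5% of the tested genes and in 36.8% of all genes with an entry. These 62 are not the 62 that entered the test. Some, such as Epha8 and Sema3e, did not enter it, and tested members such as Plxna4 and Ntn1 had no entry. The E-box CATATG was found in 0 of the 62 members with an entry and in 1.55% of the tested genes. The E-box CAGCTG was found in 15.6% of tested genes and in 9 of the 62, among them the untested Epha6, Epha10, Ntn5 and Plxnb3. Each of these motifs was searched on both strands, and none overlaps another.

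Across all 6 time points, 48 of the 62 members passed the test of any change with a range of time point means of at least 1 on the log2 scale. Over all genes tested that share was 51.8%. Receptors passed in 26 of 30 cases and ligands in 22 of 32. The highest mean level fell at E14.5 for 36 members, at 12wk for 9, at P5 for 7, at E16.5 and 4wk for 4 each and at E18.5 for 2. The 36 include members that reached 1 FPKM only before 4wk, such as Robo2 and Unc5c, for which the filter made an early peak likely. The peaks of all genes were not counted. The 14 that did not pass included the plexin Plxnb2, which was the most abundant receptor of the set at 34.1 to 51.4 scaled FPKM in every sample, and the ligands Sema4a, Sema4d, Sema7a and Efna1.

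**Figure D1:**
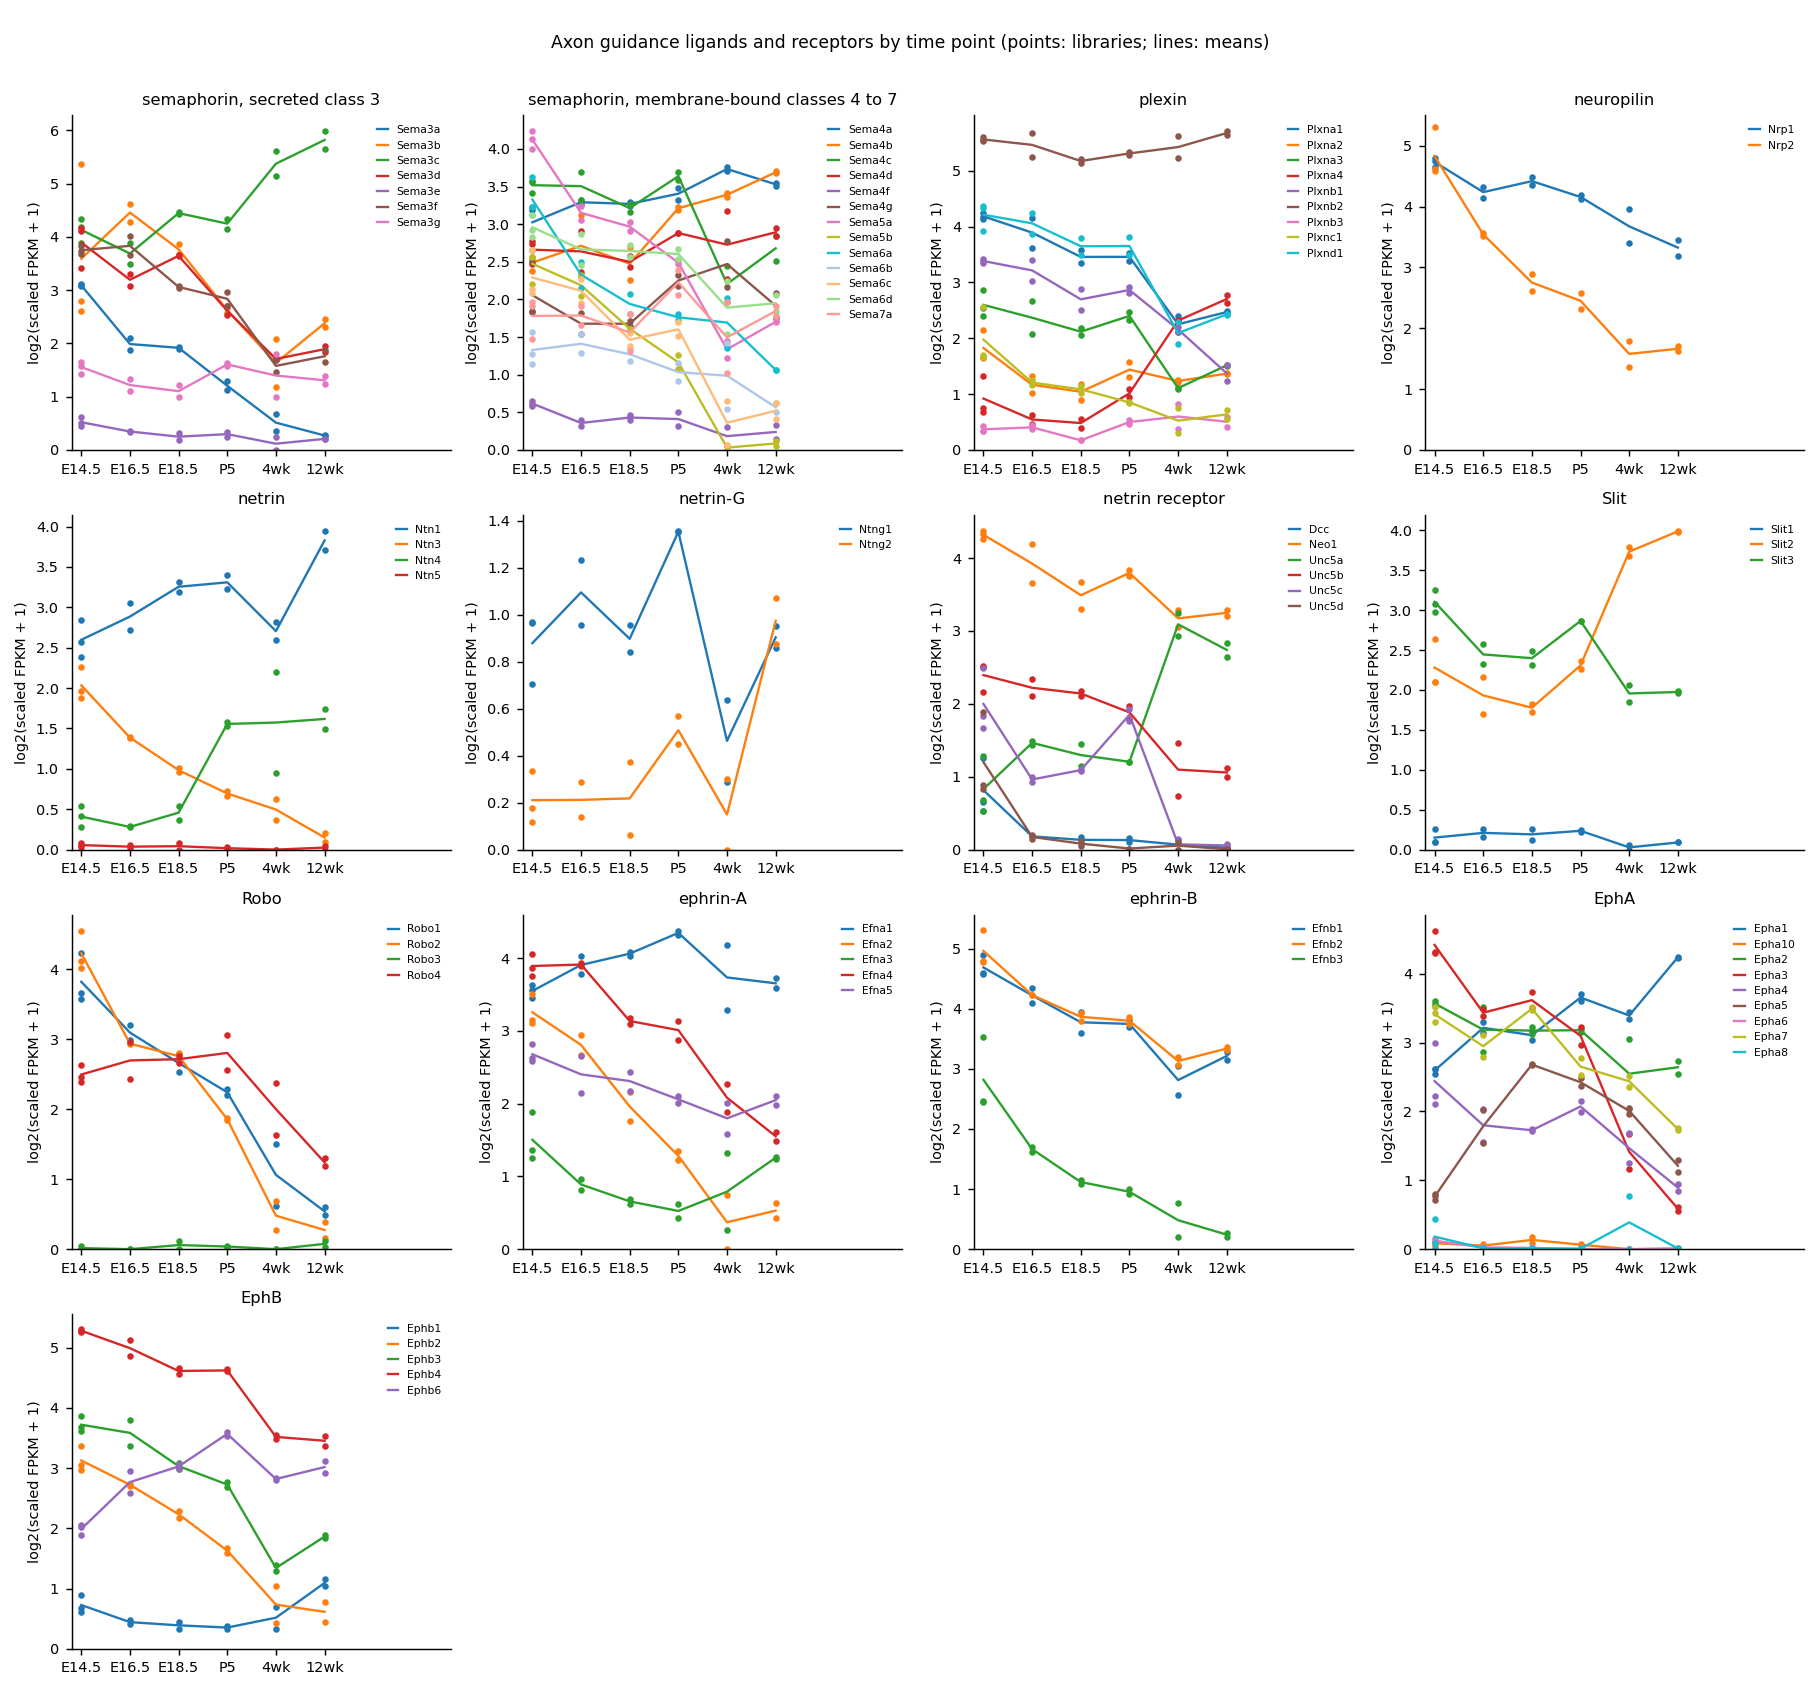
Level of each of the 72 guidance genes by time point, as log2(scaled FPKM + 1), in one panel per class. Points are the 13 libraries and lines join the time point means. Most lines descend from E14.5, whereas Sema3c, Slit2, Unc5a, Plxna4 and Ntn4 are higher at 4wk and 12wk than before birth.

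Between embryonic and adult glands most of the members that changed were lower in the adult. In the comparison of the 4 adult (4wk and 12wk) with the 7 embryonic samples, 29 of 62 members were lower, against 14.7% of all genes tested, and 5 were higher, against 13.8% of all genes. The median log2 fold change was −0.95 over the 62 members and −0.08 over all genes. The 29 comprised 14 ligands and 15 receptors, and the 5 that were higher were the ligands Slit2, Sema3c and Ntn4 and the receptors Plxna4 and Unc5a. Of the 29, Sema3a, Sema5b, Sema6c, Ntn3, Unc5c, Robo2, Efna2, Efnb3 and Ephb2 reached 1 FPKM only before 4wk. Of the 5, Ntn4 reached it only from P5 onward. The filter thus made the direction of these genes likely in advance. On FPKM as deposited, without the factor, the median of all genes was −0.75. On that scale 38 members were lower (38.0% of all genes) and 3 were higher (5.58% of all genes), and Sema3c and Ntn4 no longer passed. The 29 lower members were all among these 38. Leaving out the first E14.5 sample gave 29 lower and 5 higher, with Robo4 in place of Nrp1.

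**Figure D2:**
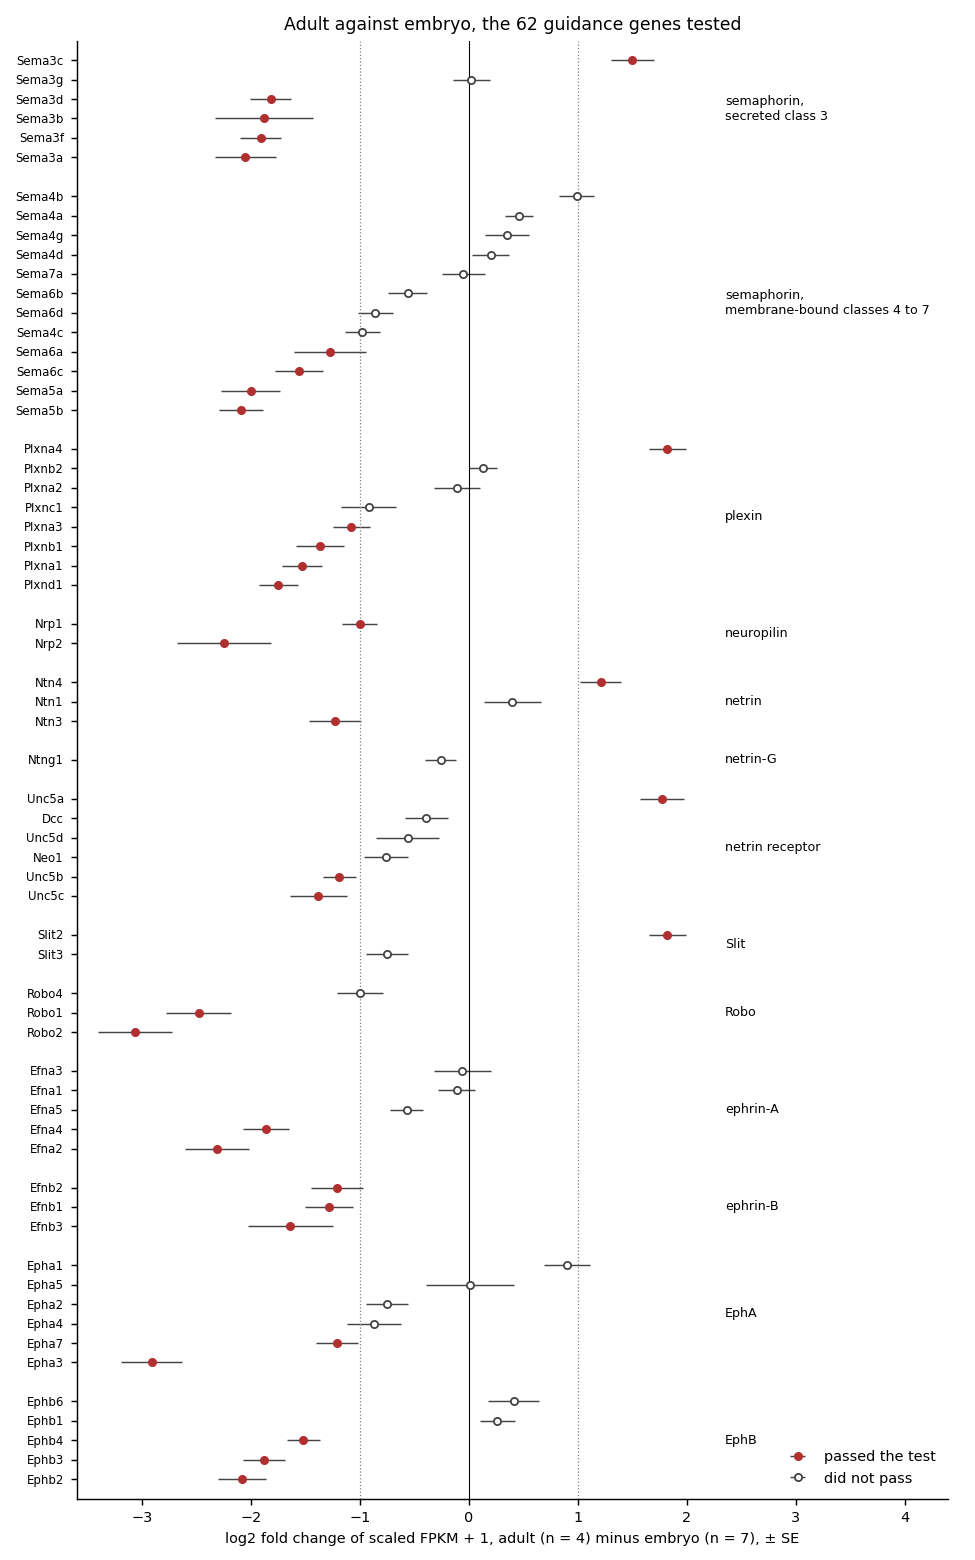
Log2 fold change of scaled FPKM + 1, adult (n = 4) minus embryo (n = 7), with its SE, for the 62 guidance genes tested, grouped by class. Filled points passed the test and dotted lines mark a fold change of 1 on the log2 scale. Robo2 at −3.06 and Epha3 at −2.91 lie farthest left, and Plxna4 and Slit2, both at 1.82, farthest right.

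Markers of several cell types moved with this comparison, in which 14.7% of all genes tested were lower and 13.8% were higher. All 8 mesenchymal markers tested were lower in the adult, and their summed level ranged from 1517.3 to 2026.1 scaled FPKM in embryonic and from 231 to 471 in adult samples. Of 9 neuronal markers 6 were lower and none was higher, with sums of 44.0 to 147 in the embryo and 6.48 to 17.3 in the adult. Of 7 endothelial markers 4 were lower, with sums of 101 to 123 and 41.6 to 68.3, and all 6 skeletal muscle markers were lower, with sums of 2.09 to 644 and 1.64 to 24.2. Of 8 Schwann cell and glial markers 1 was lower (Fabp7) and 1 was higher (Cdh19), with sums of 43.2 to 70.2 and 40.1 to 50.01. Of 7 epithelial markers Krt5 was higher and none was lower. Of 7 acinar and duct markers 4 were higher (Klk1, Amy1, Bhlha15 and Aqp5), and of 5 markers of immune and blood cells 2 were higher (Ptprc and Cd68) and 1 was lower (Hbb-y). The part of these cell types in the levels of the guidance genes was not tested.

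**Figure D3:**
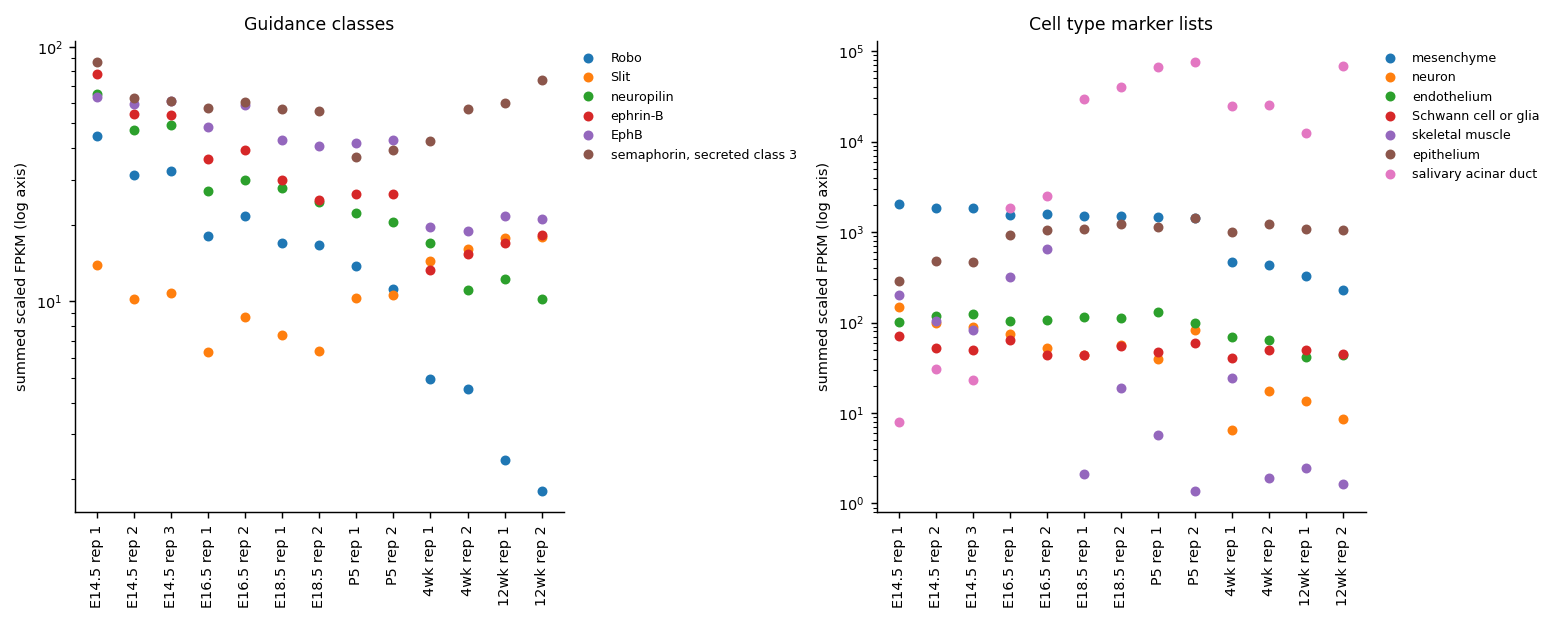
Summed scaled FPKM of 6 guidance classes (left) and of 7 lists of cell type markers (right) in each of the 13 libraries, on log axes. The Robo sum lies between 16.6 and 44.7 in embryonic and between 1.8 and 4.93 in adult libraries, and the mesenchymal sum is at most 471 in the 4 adult libraries and at least 1422.2 in the others.

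Among the class 3 semaphorins, which are secreted, Sema3c was higher and Sema3a, Sema3b, Sema3d and Sema3f were lower in the adult. Sema3c (chr5:17080099-17236086 in mm9, plus strand) was at 13.7, 19.1 and 17.2 scaled FPKM in the 3 samples of the youngest age (E14.5), followed by 13.7 and 10.3 (E16.5), 20.5 and 21.1 (E18.5), 16.8 and 19.3 (P5), 34.3 and 47.7 (4wk), and 49.5 and 62.1 (12wk). Every adult sample exceeded every earlier one, and the means were 48.4 ± 11.4 (SD, n = 4) in the adult and 16.52 ± 4.05 (SD, n = 7) in the embryo. The log2 fold change was 1.5 ± 0.20 (SE, adjusted p = 2.2e-05). On FPKM as deposited it was 0.59, short of the threshold. Sema3a, a repellent of many axons, was at 7.41, 7.62 and 7.53 (E14.5), 3.28 and 2.68 (E16.5), 2.84 and 2.72 (E18.5), 1.18 and 1.44 (P5), 0.594 and 0.279 (4wk), and 0.194 and 0.221 (12wk). No embryonic and adult values overlapped, and the adult values rested on 10 to 29 reads per sample. Its log2 fold change was −2.05 ± 0.28 (adjusted p = 3.2e-05).

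Sema3b, Sema3d and Sema3f were lower by similar amounts. Sema3f was at 7.28 to 15.1 scaled FPKM (median 11.8) in the embryo and 1.77 to 2.65 in the adult (−1.91 ± 0.19, adjusted p = 1.7e-06), and Sema3d at 7.45 to 16.9 and 2.25 to 2.85 (−1.82 ± 0.19, adjusted p = 3.3e-06). Sema3b had an unsteady level before birth, with an embryonic mean of 16.98 that was close to that of Sema3c and a median of 13.5 against 17.2. It was at 40.4, 5.08 and 5.93 (E14.5), 18.47 and 23.7 (E16.5), 13.5 and 11.8 (E18.5), 4.96 and 5.36 (P5), 1.26 and 3.26 (4wk), and 3.95 and 4.47 (12wk). The high value belonged to the E14.5 sample that stood apart, and the adult minus embryo difference was −1.88 ± 0.45 (adjusted p = 0.0028), and −1.63 without that sample. Sema3g, found in arterial endothelium, did not pass and was at 0.984 to 2.14 in the embryo and 0.994 to 2.48 in the adult. Sema3e, the ligand of plexin-D1, was at no more than 0.529 in any sample.

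Within the class the shares of its members shifted. The 7 genes together were at 55.8 to 87.0 scaled FPKM in embryonic samples, 36.8 and 39.3 at P5 and 42.7 to 73.8 in adult samples. The log2 difference of this sum between adult and embryo was −0.13, and −1.08 on FPKM as deposited. Sema3c made up 15.8% to 37.9% of this sum before birth, 45.5% and 49.0% at P5, and 80.3% to 84.2% in the adult. Such a share within a sample does not depend on the factor used to scale it. The ratio of Sema3c to Sema3a was 1.85 to 2.51 at E14.5, 13.4 and 14.2 at P5 and 256 and 281 at 12wk, the latter on 21 and 29 reads of Sema3a.

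Among the membrane-bound semaphorins Sema5a, Sema5b, Sema6a and Sema6c were lower in the adult, and no Sema4 gene and not Sema7a passed in either direction. Sema5a, which had the highest embryonic mean of the class, was at 6.48 to 17.8 scaled FPKM (median 8.48) in the embryo and 1.34 to 2.27 in the adult (−2.0 ± 0.27, adjusted p = 2.7e-05). Sema5b was at 3.61, 5.32 and 4.89 (E14.5), 3.14 and 4.02 (E16.5), 2.06 and 2.05 (E18.5), 1.39 and 1.1 (P5), 0 and 0.0447 (4wk), and 0.0886 and 0.0366 (12wk). The 4 adult values rested on 0, 1, 6 and 3 reads, so that the transcript was at the limit of detection, and the log2 fold change was −2.09 ± 0.20 (adjusted p = 1.4e-06). Sema6c was at 1.60 to 5.29 in the embryo and 0.0486 to 0.575 in the adult (−1.56 ± 0.22, adjusted p = 4e-05), and Sema6a at 2.50 to 11.4 and 1.09 to 3.07, ranges that overlap (−1.27 ± 0.33, adjusted p = 0.0047).

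Sema4a, Sema4b and Sema4c lay on either side of these. Sema4a, the most abundant of the class in the adult, was at 5.33 to 8.97 in the embryo and 10.4 to 12.5 in the adult (0.46 ± 0.13), a difference that became −0.39 on FPKM as deposited. Sema4b was at 3.78 to 7.67 and 9.29 to 12.0, and its log2 fold change of 0.99 lay just under the threshold, while Sema4c at −0.98 and Sema6d at −0.86 fell short of it in the other direction. With limma-voom on recovered reads and with a pseudocount of 0.1 all 3 passed, and Sema4c and Sema6d also passed on FPKM as deposited. Sema4d, a ligand of plexin-B1, was at 4.17 to 6.5 and 3.85 to 8.05, Sema4g at 1.90 to 4.65 and 2.36 to 5.87, Sema6b at 1.20 to 1.96 and 0.423 to 1.69, Sema6d at 4.49 to 7.72 and 1.91 to 3.73, and Sema7a, a ligand of plexin-C1, at 1.48 to 2.91 and 1.03 to 2.92. Sema4f stayed at or below 0.572.

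Among the receptors of semaphorins, Plxna4 was higher and Plxna1, Plxna3, Plxnb1, Plxnd1 and both neuropilins were lower in the adult. Plxna4 (chr6:32094565-32538192, minus strand), which pairs with neuropilins to receive class 3 semaphorins, was at 1.49, 0.690 and 0.612 scaled FPKM (E14.5), 0.387 and 0.537 (E16.5), 0.477 and 0.322 (E18.5), 0.927 and 1.12 (P5), 3.94 and 4.03 (4wk), and 5.19 and 5.85 (12wk). The lowest adult value was above all earlier ones, and the log2 fold change was 1.82 ± 0.17 (adjusted p = 1.2e-06). Plxna1 went the other way, from 9.13 to 17.9 (median 16.6) in the embryo to 3.31 to 4.59 in the adult (−1.53 ± 0.18, adjusted p = 9e-06). Exons of another gene overlap those of Plxna4 on the opposite strand in the mm9 annotation, as do those of other genes for Plxna1 and Plxnb1. The ratio of Plxna4 to Plxna1 within a sample was 0.0317 to 0.0902 before birth, 0.0884 and 0.118 at P5 and 0.945 to 1.3 in the adult.

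Plxnd1, a receptor of endothelial cells, was at 14.2, 19.7 and 19.2 (E14.5), 13.6 and 18 (E16.5), 12.9 and 10.3 (E18.5), 13.1 and 10.2 (P5), 3.87 and 2.74 (4wk), and 4.36 and 4.41 (12wk), with a log2 fold change of −1.75 ± 0.18 (adjusted p = 2.4e-06). Its E14.5 and E16.5 values overlapped each other and lay wholly above those at E18.5 and P5, which also overlapped, and the adult values lay apart below. Plxnb1 was at 4.71 to 9.74 in the embryo and 1.34 to 3.60 in the adult, and Plxna3 at 3.17 to 6.27 and 1.14 to 1.88. Plxnb2 was the most abundant plexin at both stages, with 42.3 ± 6.30 (SD, n = 7) in the embryo and 46.2 ± 6.60 (SD, n = 4) in the adult. Its log2 fold change was 0.13 ± 0.13 (adjusted p = 0.42) and became −0.80 on FPKM as deposited. Plxna2 was at 0.862 to 3.46 and 1.33 to 1.59, Plxnc1 at 1.03 to 4.93 and 0.231 to 0.683, and Plxnb3 at no more than 0.759 in any sample.

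Nrp2, a co-receptor of class 3 semaphorins and of vascular endothelial growth factors, was at 38.4, 22.9 and 23.5 (E14.5), 10.5 and 10.8 (E16.5), 6.43 and 5.10 (E18.5), 5.00 and 3.99 (P5), 2.46 and 1.58 (4wk), and 2.26 and 2.08 (12wk). Each time point before birth lay wholly below the preceding one, and the adult minus embryo difference was −2.25 ± 0.43 (adjusted p = 0.0005), and −2.01 without the E14.5 sample that stood apart. Nrp1 was at 16.7 to 26.9 (median 21.4) in the embryo and 8.15 to 14.47 in the adult. Its log2 fold change of −1.0 ± 0.16 (adjusted p = 0.00011) sat at the threshold and was between −0.90 and −0.99 in each of the 6 leave-one-out fits in which it missed it. Nrp1 was at 0.699 to 1.1 times the level of Nrp2 at E14.5 and at 3.92 to 6.03 times its level in the adult. Nrp1 shares exonic sequence with the microRNA gene Mir1903 in the mm9 annotation.

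The netrins went in both directions. Ntn4 (chr10:93103426-93209952, plus strand), a netrin of basement membranes, was at 0.449, 0.329 and 0.214 scaled FPKM (E14.5), 0.220 and 0.209 (E16.5), 0.294 and 0.457 (E18.5), 1.98 and 1.90 (P5), 3.59 and 0.929 (4wk), and 2.34 and 1.82 (12wk). All samples from P5 onward exceeded all embryonic ones, but the 4wk samples lay far apart and rested on 36 and 11 reads. The log2 fold change between adult and embryo was 1.21 ± 0.19 (adjusted p = 8.6e-05). Ntn1, the most abundant netrin at both stages, was at 6.18, 4.93 and 4.21 (E14.5), 5.60 and 7.27 (E16.5), 8.96 and 8.14 (E18.5), 8.34 and 9.52 (P5), 6.04 and 5.04 (4wk), and 12.1 and 14.4 (12wk). Adult and embryonic values overlapped (0.40 ± 0.26, adjusted p = 0.19, and −0.42 on FPKM as deposited). Ntn3 was at 0.946 to 3.80 in the embryo and 0.0681 to 0.541 in the adult, the latter on 6 to 11 reads (−1.23 ± 0.24, adjusted p = 0.00056). The Ntn3 exons overlap those of 2 other genes, Tbc1d24 on the same strand and BC028777 on the other. Ntn5 was near 0, with 15 reads over all samples. Ntng1, a membrane-anchored netrin-G, was at 0.628 to 1.35 and 0.220 to 0.932 and did not pass (−0.26 ± 0.14), and Ntng2 was at 0.0455 to 0.294 in the embryo and 0 to 1.1 in the adult.

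Of the netrin receptors, Unc5a was higher and Unc5b and Unc5c were lower. Unc5a (chr13:55050772-55107379, plus strand) was at 1.43, 0.606 and 0.440 (E14.5), 1.71 and 1.81 (E16.5), 1.22 and 1.72 (E18.5), 1.31 and 1.3 (P5), 8.48 and 6.66 (4wk), and 5.26 and 6.13 (12wk). The adult samples stood well above all others (1.77 ± 0.20, adjusted p = 6.4e-06). Exons of Hk3, which encodes a hexokinase, overlap those of Unc5a on the opposite strand in the mm9 annotation. Hk3 itself was at 0.470 to 1.67 scaled FPKM in all samples. Unc5c was at 4.65, 2.17 and 2.56 (E14.5), 0.897 and 1.00 (E16.5), 1.15 and 1.11 (E18.5), 2.41 and 2.81 (P5), 0.104 and 0 (4wk), and 0.0506 and 0.0299 (12wk). Its P5 values were thus close to those of 2 of the 3 E14.5 samples, and the adult values rested on 4, 0, 7 and 5 reads (−1.38 ± 0.26, adjusted p = 0.00049, and −1.20 without the first E14.5 sample). Unc5b was at 3.29 to 4.73 in the embryo and 0.659 to 1.76 in the adult (−1.19 ± 0.15, adjusted p = 1.6e-05).

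Neo1, which encodes neogenin, was the most abundant netrin receptor in all samples but the first 4wk sample, where it was at 7.33 and Unc5a at 8.48. It was at 8.87 to 19.7 in the embryo and 7.33 to 8.79 in the adult (−0.76 ± 0.20), and passed only on FPKM as deposited. Dcc was at 1.39, 0.449 and 0.572 at E14.5 and at no more than 0.134 in any later sample, and Unc5d was at 2.69, 0.777 and 0.849 at E14.5 and at no more than 0.146 later. Both were highest in the E14.5 sample that stood apart, and neither passed between adult and embryo on scaled FPKM + 1. With limma-voom and with a pseudocount of 0.1 both were lower in the adult, where they rested on at most 5 reads per sample. Within the class Unc5a made up 1.53% to 11.4% of the summed level before birth, 6.5% and 6.85% at P5 and 34.8% to 47.8% in the adult.

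Slit2 rose while its receptors Robo1 and Robo2 fell. Slit2 (chr5:48374394-48697521, plus strand), a secreted repellent, was at 5.21, 3.29 and 3.30 scaled FPKM (E14.5), 2.24 and 3.49 (E16.5), 2.55 and 2.31 (E18.5), 3.78 and 4.13 (P5), 11.8 and 12.8 (4wk), and 14.8 and 14.9 (12wk). The adult mean of 13.6 ± 1.53 (SD, n = 4) was 4.24 times the embryonic mean of 3.20 ± 1.02 (SD, n = 7), with no overlap (1.82 ± 0.17, adjusted p = 1e-06). Slit3 was at 3.95 to 8.54 in the embryo, 6.30 and 6.26 at P5 and 2.6 to 3.18 in the adult (−0.75 ± 0.19, under the fold threshold), and Slit1 stayed at or below 0.20. Slit3 had the larger share of the Slit sum in all samples up to P5, 57.2% to 68.8% in the embryo, and Slit2 had 80.0% to 83.3% of it in the adult. The ratio of Slit2 to Slit3 within a sample was 0.444 to 0.707 before birth, 0.601 and 0.659 at P5 and 4.04 to 5.10 in the adult.

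Robo2 (chr16:73892551-74412070, minus strand) had the largest log2 fold change of scaled FPKM + 1 among the 62 members. As a ratio of embryonic to adult means its 36.3 was below those of Sema5b (84.4) and Unc5c (42.0), which rested on 0 to 7 reads per adult sample. It was at 22.5, 15.2 and 16.4 (E14.5), 6.64 and 6.69 (E16.5), 5.58 and 5.98 (E18.5), 2.59 and 2.66 (P5), 0.209 and 0.607 (4wk), and 0.309 and 0.117 (12wk). Its read counts dropped from between 951 and 4683 in the embryo to between 7 and 37 in the adult, and the log2 fold change was −3.06 ± 0.34 (adjusted p = 4.9e-06). Without the first E14.5 sample it was −2.88. Robo1 was at 17.9, 11.6 and 10.9 (E14.5), 6.92 and 8.24 (E16.5), 5.94 and 4.77 (E18.5), 3.87 and 3.60 (P5), 0.541 and 1.83 (4wk), and 0.515 and 0.397 (12wk), with a log2 fold change of −2.48 ± 0.30 (adjusted p = 9.5e-06), and −2.32 without the first E14.5 sample. For both genes the values at each time point up to 4wk lay wholly below those of the one before. Robo4, the Robo of endothelial cells, was at 4.26 to 6.77 in the embryo, 7.31 and 4.88 in pups (P5), 4.18 and 2.10 in the 4wk samples and 1.46 and 1.27 in the 12wk samples. It made up 9.54% to 34.9% of the Robo sum in the embryo and 46.3% to 84.8% in the adult. Its log2 fold change of −1.0 was just short of the threshold before rounding, and it passed under several alternatives, among them FPKM as deposited (−1.66), limma-voom (−1.59), the 12wk samples alone as the adult (−1.38) and the fits without the first 4wk sample (−1.25) or the first E14.5 sample (−1.03). Robo3 was at no more than 0.0854 in any sample.

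**Figure D4:**
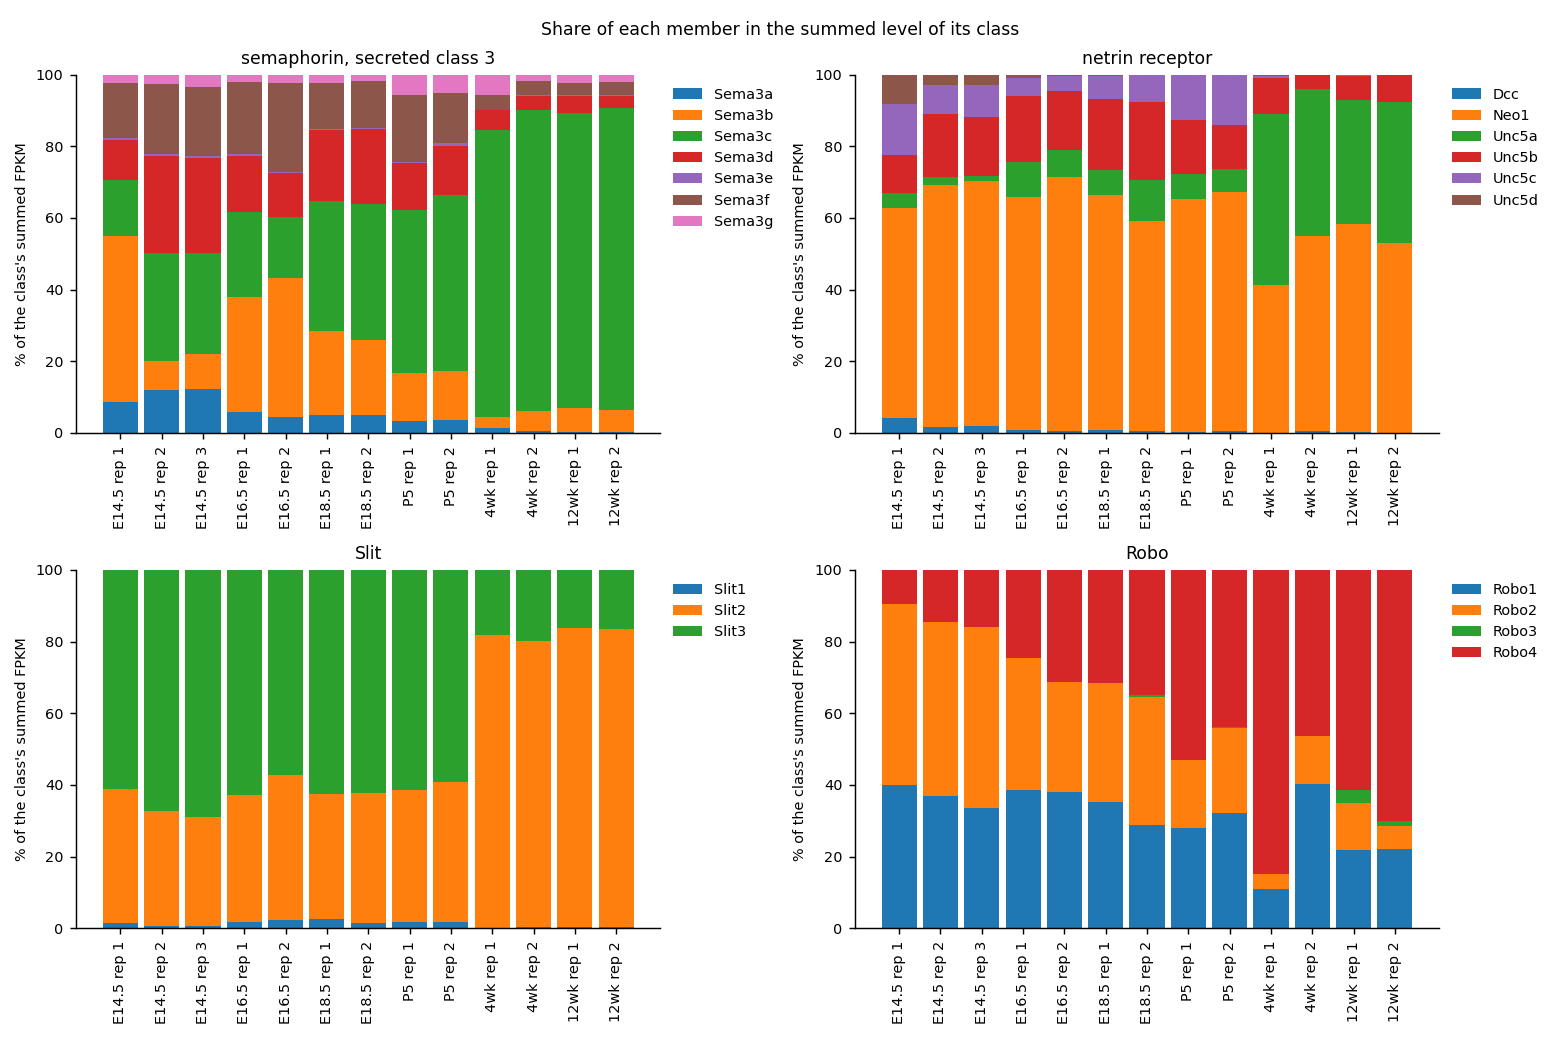
Share of each member in the summed FPKM of its class, in percent, for the 13 libraries, in 4 classes. Sema3c, Slit2 and Unc5a take larger shares at 4wk and 12wk than at any earlier time point, and the Robo4 share is 46.3% to 84.8% there.

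Ephrins, the ligands of Eph receptors, were lower in the adult in 5 of 8 cases (14.7% of all genes) and higher in none (13.8% of all genes). All ephrin-B genes, whose products span the membrane, were lower. Efnb2, the arterial ephrin and the most abundant of them, was at 38.7, 26.6 and 26.7 scaled FPKM (E14.5), 17.7 and 17.8 (E16.5), 14.3 and 12.9 (E18.5), 12.4 and 13.5 (P5), 8.19 and 7.35 (4wk), and 8.91 and 9.33 (12wk), with a log2 fold change of −1.21 ± 0.24 (adjusted p = 0.00078). Efnb1 was at 11.1 to 28.7 (median 19.3) in the embryo and 4.95 to 8.69 in the adult (−1.28 ± 0.22, adjusted p = 0.00023). Efnb3 was at 10.6, 4.51 and 4.49 at E14.5, between 1.12 and 2.26 at E16.5 and E18.5, and between 0.150 and 0.696 in the adult, where it rested on 2 to 11 reads (−1.64 ± 0.39, adjusted p = 0.0024, and −1.39 without the first E14.5 sample).

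Of the ephrin-A genes, whose products are lipid-anchored, Efna2 and Efna4 were lower. Efna2 was at 10.4, 7.64 and 7.85 (E14.5), 6.69 and 5.37 (E16.5), 3.48 and 2.38 (E18.5), 1.33 and 1.54 (P5), 0 and 0.669 (4wk), and 0.347 and 0.548 (12wk), with a log2 fold change of −2.31 ± 0.29 (adjusted p = 1.5e-05). The ranges of successive time points up to P5 did not overlap, and the adult values rested on 0 to 21 reads. Efna4 was at 7.58 to 15.6 and 1.81 to 3.83 (−1.86 ± 0.21, adjusted p = 6e-06), and exons of an opposite-strand gene overlap its own. Efna1, the most abundant ephrin-A at both stages, was at 9.96 to 16 and 8.79 to 17.1 and did not pass (−0.11 ± 0.17, adjusted p = 0.61). Efna5 was at 3.44 to 6.08 and 2.01 to 3.32 and Efna3 at 0.540 to 2.71 and 0.196 to 1.5.

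Eph receptors were lower in 5 of 11 cases (14.7% of all genes) and higher in none (13.8% of all genes). Epha3 (chr16:63543364-63863984, minus strand) was at 23.7, 18.8 and 19.0 (E14.5), 10.2 and 9.43 (E16.5), 12.3 and 10.3 (E18.5), 6.84 and 8.35 (P5), 2.18 and 1.23 (4wk), and 0.473 and 0.531 (12wk). It had the highest embryonic mean of its class, and the log2 fold change was −2.91 ± 0.28 (adjusted p = 1.3e-06). Epha1, at 4.86 to 8.82 in the embryo, was the most abundant EphA in the adult, at 9.19 and 9.83 at 4wk and 17.8 and 18 at 12wk, and its log2 fold change of 0.90 ± 0.21 lay under the threshold. It passed without the first (1.05) or the second (1.03) 4wk sample, with the 12wk samples alone as the adult (1.32) and with limma-voom (1.17), and was 0.05 on FPKM as deposited. Exons of Zyx overlap Epha1 on the opposite strand, and Zyx was at 9.60 to 34.6 scaled FPKM. The ratio of Epha1 to Epha3 was 0.205 to 0.274 at E14.5 and 33.9 and 37.6 at 12wk.

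Epha5 had its highest level at E18.5, between lower levels at E14.5 and 12wk, and its adult and embryonic ranges overlapped (0.01 ± 0.40, adjusted p = 0.99). It was at 0.749, 0.701 and 0.637 (E14.5), 1.92 and 3.07 (E16.5), 5.40 and 5.42 (E18.5), 4.15 and 4.59 (P5), 3.15 and 2.90 (4wk), and 1.18 and 1.46 (12wk). Epha7 was at 5.90 to 10.4 in the embryo and 2.33 to 4.71 in the adult (−1.21 ± 0.19, adjusted p = 9.3e-05). Epha2 was at 6.28 to 11.2 and 3.12 to 7.30 and Epha4 at 1.94 to 6.94 and 0.797 to 2.21, and neither passed on scaled FPKM + 1. On FPKM as deposited both were lower in the adult, and Epha4 was also lower with limma-voom and with a pseudocount of 0.1. Epha6 and Epha10 were near 0, and Epha8 had 44 reads in the first E14.5 sample, 14 in the first 4wk sample and at most 11 in any other.

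Of the EphB receptors, which bind ephrin-Bs, Ephb2, Ephb3 and Ephb4 were lower. Ephb2 was at 9.27, 6.85 and 7.24 (E14.5), 5.68 and 5.52 (E16.5), 3.90 and 3.51 (E18.5), 2.00 and 2.19 (P5), 1.06 and 0.341 (4wk), and 0.718 and 0.361 (12wk), with a log2 fold change of −2.08 ± 0.22 (adjusted p = 2.9e-06). Ephb4, the venous partner of ephrin-B2 and the most abundant EphB at both stages, was at 22.6 to 38.5 (median 33.8) in the embryo, 23.3 and 23.9 at P5 and 9.33 to 10.7 in the adult (−1.52 ± 0.15, adjusted p = 2e-06). Ephb3 was at 6.91 to 13.5 and 1.45 to 2.71 (−1.88 ± 0.19, adjusted p = 2.4e-06). Ephb6, a member without kinase activity, was at 2.71 to 7.35 in the embryo, 10.6 and 11.1 at P5 and 5.96 to 7.69 in the adult (0.41 ± 0.23), and Ephb1 was at 0.253 to 0.861 and 0.262 to 1.22. Exons of opposite-strand genes overlap those of Ephb4 and Ephb1, and those of Efna3 among the ephrins.

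The steps between successive time points showed when some of these differences arose. Other members lower in the adult, among them Efna2, Ephb2 and Efnb1, passed in no step of the limma test. From E14.5 to E16.5, 6 of 62 members were lower (0.751% of all genes) and 1 was higher (3.64% of all genes). Robo2 fell by 1.29 on the log2 scale (SE 0.18, adjusted p = 0.0012), Nrp2 also by 1.29 (SE 0.22, adjusted p = 0.0038), Efnb3 by 1.16 (SE 0.29, adjusted p = 0.023) and Sema3a by 1.1 (SE 0.14, adjusted p = 0.00063). Unc5c fell by 1.04 and Unc5d by 1.03, and Epha5 rose by 1.03 (SE 0.15, adjusted p = 0.0017). Epha5 no longer passed without the third E14.5 sample or the second E16.5 sample (0.79 without the latter). Without the E14.5 sample that stood apart, 3 were lower, namely Robo2, Nrp2 and Sema3a, and 2 were higher, namely Epha5 and Sema3b. The differences of Efnb3, Unc5c and Unc5d were then −0.80, −0.79 and −0.68, and that of Sema3b was 1.76 in place of 0.87. Across this step the neuronal sum was 89.4 to 147 and then 51.7 to 74.5, and the skeletal muscle sum 81.6 to 201 and then 319 to 644. The mesenchymal sum was 1849.2 to 2026.1 and then 1531.5 and 1579.6, the epithelial sum 289 to 480 and then 928 and 1058.4, and the sum of immune and blood markers 264 to 2234.5 and then 13.3 and 35.2. Of this last sum, Hbb-y alone was at 2228.8, 258 and 513 in the E14.5 samples. The part of these markers in the differences was not tested.

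From E16.5 to E18.5 no member passed in the limma test, against 1.32% of all genes higher and 1.17% lower. At an unadjusted p below 0.05, 17 of 62 members and 3230 of 14650 genes differed in this step. Of the 17 members, 14 were lower at E18.5. With limma-voom on reads recovered from the FPKM, 1 member, Epha5, was higher (3.02% of all genes) and 1, Efna2, was lower (2.79% of all genes). From E18.5 to P5, Ntn4 rose by 1.1 on the log2 scale (SE 0.31, adjusted p = 0.043) and Sema3d fell by 1.03 (SE 0.22, adjusted p = 0.014), 1 member in each direction against 2.37% of all genes higher and 1.79% lower. Ntn4 no longer passed when any of the 4 samples of this step was left out. Sema3d was at 11.4 and 11.6 at E18.5 and at 4.78 and 5.48 at P5, and it no longer passed without the first P5 sample, at −0.95.

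From P5 to 4wk, 14 members were lower, 22.6% of those tested against 8.72% of all genes. Another 4 were higher, 6.45% against 6.37% of all genes, so that members rose about as often as genes in general. Both counts were the largest of any step, but all genes also had their largest shares in both directions in this step. Unc5a rose by 1.88 on the log2 scale (SE 0.23, adjusted p = 0.00014), Slit2 by 1.43, Plxna4 by 1.3 and Sema3c by 1.13. Unc5c fell by 1.78 (SE 0.23, adjusted p = 0.00021), Epha3 by 1.69 (SE 0.19, adjusted p = 7.6e-05) and Plxnd1 by 1.55 (SE 0.21, adjusted p = 0.00025). The other 11 that were lower, by 1.11 to 1.43, were the ligands Sema3f, Sema4c, Sema5a, Sema5b and Sema6c and the receptors Plxna1, Plxna3, Robo1, Robo2, Ephb3 and Ephb4. On FPKM as deposited 35 were lower (22.1% of all genes) and 1, Unc5a, was higher (2.19% of all genes). Without the second 4wk sample 22 were lower, and Sema3c at 0.90 and Sema6c at −0.95 no longer passed. Without the first, Robo1 at −0.74 no longer passed. The mesenchymal sum was 1422.2 and 1466.0 at P5 and 435 and 471 at 4wk, and the endothelial sum 100 to 132 and then 64.5 to 68.3. The neuronal sum was 40.00 and 83.5 and then 6.48 and 17.3. The acinar and duct sum was 67212.7 and 75393.0 and then 24564.2 and 25167.6, but its genes went both ways. Smgc fell from a mean of 42670.5 to 80.79 and Bpifa2 from 27821.1 to 959.1. Klk1 rose from 509.7 to 23076.2, Aqp5 from 170 to 357.5, Bhlha15 from 73.83 to 237, Muc19 from 55.4 to 138.8 and Amy1 from 2.261 to 16.33. The part of these markers in the differences was not tested.

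From 4wk to 12wk, 1 member, Ntn1, was higher (3.62% of all genes), and none was lower (3.24% of all genes). Ntn1 rose by 1.12 on the log2 scale (SE 0.18, adjusted p = 0.0023), and did not pass when the 4 samples of this step were fitted alone. At an unadjusted p below 0.05, 14 of 62 members differed, 7 in each direction, and 4622 of 14650 genes did. With limma-voom 1 member was higher (2.82% of all genes) and 2, Epha5 and Plxnb1, were lower (3.4% of all genes). The shallow 4wk samples limit this step and the one before it, since 1 read on a gene of 1 kb corresponded to 0.172 and 0.126 FPKM as deposited there and to 0.0207 to 0.0577 in the other samples.

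**Figure D5:**
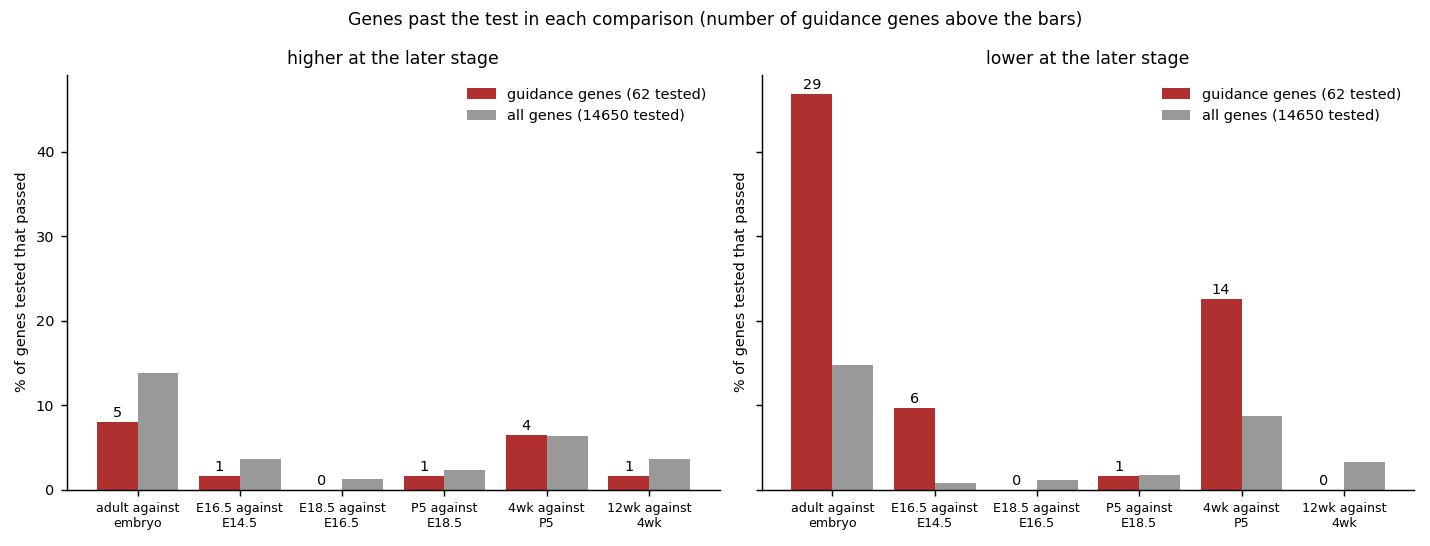
Percent of the 62 guidance genes and of all 14650 genes tested that were higher (left) or lower (right) at the later stage, in the adult against embryo comparison and in the 5 successive steps. Numbers above the bars count guidance genes, with 29 lower in the adult and 14 lower at 4wk than at P5.

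Other guidance genes were examined through lists fixed by pathway. Their counts stand against 13.8% of all genes tested that were higher and 14.7% that were lower in the adult. Of 13 other guidance ligands tested, 2 were higher (15.4%) and 5 lower (38.5%). Vegfa, a growth factor for vessels that also binds neuropilins, was among the higher ones, at 7.58 to 15.6 scaled FPKM in the embryo and 68.5 to 264 in the adult (3.40 ± 0.35, adjusted p = 2.8e-06). Flrt2 (−2.68), Bmp7 (−2.36) and Flrt3 (−2.24) were lower, as were Cxcl12 and Rgma, the latter a ligand of neogenin. Of 20 other receptors tested, 3 were higher, Ngfr (2.16), Met (1.80) and Ret (1.63), and 4 lower (15% and 20%), led by Gfra2 (−2.12), Cxcr4 (−1.79) and Cdon (−1.70). Ret, the receptor tyrosine kinase of the GDNF family, was at 30.7 and 32.4 at 4wk and at 0.650 and 0.409 at 12wk, so that its adult values did not form a single level. Of 37 intracellular effectors tested, 3 were higher, Ablim1 (2.53), Ngef (2.36) and Rnd1 (1.26), and 9 lower (8.11% and 24.3%), among them Crmp1 (−2.27) and Dpysl2 (−1.77), which act downstream of class 3 semaphorins, and the kinase Fyn (−1.68). The median log2 fold change was −0.26, −0.46 and −0.41 in the 3 lists, against −0.08 over all genes.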

How the data were processed

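Whole submandibular glands were profiled by RNA-seq in 13 samples at 6 time points. The authors sequenced total RNA (50-base single-end reads), aligned it to mm9 with TopHat2 2.0.13 and Bowtie2 2.2.6, counted reads on genes with featureCounts, leaving out reads with several positions or genes, and deposited FPKM per gene, scaled to each sample's reads on genes. Whether counting used strand is not given in the sources used here. Per the labels' notes, DESeq2 1.10.1 was used for the study's own tests. Samples were grouped by time point, and into embryo, neonatal and adult, from their labels. Replicate samples of a group are called separate in the labels.

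From the FPKM, median-of-ratios factors were computed over 13039 genes above 0 in every sample, and log2(FPKM / factor + 1) was tested with limma 3.58.1 (R 4.3.3), its prior variance following the mean level, and adjusted by the Benjamini-Hochberg method across 14650 genes. The adult against embryo comparison was fitted on all 13 samples by stage, and the 5 steps and the test of any change on all 13 by time point. FPKM were whole multiples of 1 read per gene, within 0.001, for 96.6% of the 23364 genes and for all 72 members, which gave the read counts quoted. The depth was 5817075 to 48311583 such reads per sample. The adult against embryo fit was tested on simulated data. Members and gene lists were chosen with earlier results of these data known. All 72 members are named with a level. Full statistics are given for up to 3 called members per class with the largest adult against embryo difference, up to 4 per step, and the most abundant member of each class at each stage. Other members and genes outside the lists, such as Hk3 and Zyx, were named for an overlap or a position near the threshold after their values were seen. Alternatives were FPKM as deposited, other factors, a pseudocount of 0.1, other filters, no trend, an adjusted p below 0.05, a replicate block, fewer samples, each replicate left out, and, chosen after seeing the data, limma-voom on the recovered reads. Promoters came from RefSeq, matched by symbol for 62 of 72 members (first start listed), and gene positions from the GENCODE annotation of mm9. Values of some genes in the marker and pathway lists are not reported here.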

Additional observations from a re-analysis of the deposited data

Results flagged for a closer look

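In 124 groups of values, those of the 62 members in the 7 embryonic and in the 4 adult samples, 14 held a sample whose gap to its nearest neighbour took up more of the group's range than Dixon's 95% critical value. Chance flags about 1 in 20 groups, or 6.2 of 124. The embryonic samples span 3 time points, so that a gap there can also lie between ages. In the embryo 9 of the 14 were found, all at the first E14.5 sample, which was highest for Sema4g (gap ratio 0.750), Plxna4 (0.685), Plxnc1 (0.690), Dcc (0.619), Unc5d (0.693), Slit2 (0.576), Efnb3 (0.642) and Epha4 (0.651) and lowest for Sema4a (0.758). In the adult the first 4wk sample was highest for Sema6b (0.904) and Unc5d (0.907) and lowest for Efna3 (0.905), and the second 4wk sample was highest for Robo1 (0.9) and Efnb3 (0.891). Both are the shallowest samples, with 5817075 and 7957676 reads on genes. Unc5d rested on 3 reads in the first, and Robo1 and Efnb3 on 68 and 11 reads in the second. The part of depth in these gaps was not tested.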

How the results depend on the processing

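The count of members lower in the adult than in the embryo was 28 to 31 when 1 replicate was left out and 28 with a replicate block. The count of members that changed over time was 47 to 52 when 1 replicate was left out. Other settings moved both counts further. With a pseudocount of 0.1, 37 were lower in the adult and 56 changed over time. With limma-voom these counts were 37 and 57, and on FPKM as deposited 38 and 54. Members higher in the adult numbered 5 to 7 with 1 replicate left out and 3 on FPKM as deposited. Without 1 replicate, the other ranges were 0 to 2 higher and 3 to 9 lower from E14.5 to E16.5, 0 to 1 higher and 0 lower from E16.5 to E18.5, 0 to 1 higher and 0 to 2 lower from E18.5 to P5, 3 to 4 higher and 14 to 22 lower from P5 to 4wk, and 1 higher and 0 to 2 lower from 4wk to 12wk. With a pseudocount of 0.1 these steps gave 2 higher and 10 lower, 1 higher, 2 higher and 3 lower, 26 lower, and 3 higher and 5 lower, in that order, where they differed. With limma-voom they gave 2 and 13, 1 and 1, 4 and 3, 23 lower, and 2 lower. On FPKM as deposited 1 was lower from E16.5 to E18.5, 2 were lower from E18.5 to P5, and 1 was higher and 35 were lower from P5 to 4wk. Fitting the samples of a step alone gave 2 lower from E18.5 to P5 and 0 higher from 4wk to 12wk. The cause of these shifts was not tested. Samples with the same replicate number did not deviate together on average (mean r = −0.012 over 30 pairs, from −0.373 to 0.271). Pairs of different numbers (mean r = 0.009 over 40 pairs, from −0.271 to 0.373) are no independent comparison, since deviations at a time point with 2 samples mirror each other. No pairing by number was seen, but these values cannot exclude one. With the replicate block 0 members were higher from E14.5 to E16.5, and Nrp1 missed the threshold at −0.96.

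The 64 fold changes of named members had 1552 values under the alternatives, of which 1504 kept their direction and their side of the threshold, 27 no longer passed, 17 newly passed and 4 changed sign. The 4 were Sema4a (−0.39), Plxnb2 (−0.80) and Ntn1 (−0.42) on FPKM as deposited and Efna1 (0.03) without the first 4wk sample, where leaving out 1 sample gave −0.27 to 0.03, and none of these passed in the adult against embryo comparison. Several alternatives could not move a fold change, namely an adjusted p below 0.05, other filters, no trend and leaving out a sample outside the comparison. The 1504 therefore overstate how stable the values are. Of the 64, 53 stayed the same on FPKM as deposited, 5 no longer passed, 3 newly passed and 3 changed sign. On that scale the summed Slit level differed by −0.04 on the log2 scale between adult and embryo in place of 0.91, and the netrin sum by −0.61 in place of 0.33. The depth of the 4wk samples limits differences of genes with few reads there, such as Sema5b, Unc5c and Efnb3.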
